A study of Drosophila melanogaster with 12 samples.

Results

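The G elements are a family of LINE retrotransposons, and small RNAs matching them were measured on each strand in the gonads of *Drosophila melanogaster* with and without an added Y chromosome. Members were every transposon entry named G, with an optional number and an optional A, followed by _DM: G_DM, G2_DM, G3_DM, G4_DM, G5_DM, G5A_DM, G6_DM and G7_DM, written G, G2, G3 and so on from here. The ovary table held 16 such rows (8 elements, each with a Plus and a Minus row) of 384 transposon rows and 968 rows in all. The testis table held 10 rows (6 elements) of 298 transposon rows and 845 rows in all. Transposon rows are here all rows of the class TE. In ovary that class also holds other repeats, among them 5S_DM and the rRNA gene spacer NTS_DM. As used here it lists no G3 or G7 row and no Minus row of G5 or G5A. Within the tables members are taken by name, but the family itself was chosen by values: in earlier results of these data many transposon values, those of G2 among them, were higher in XXYcongo than in XX ovaries. Values of that contrast are therefore a description without a test, and the contrasts that share its libraries are marked where they appear.

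LINEs move by copying their RNA back into DNA with a reverse transcriptase that they encode, and they have no long terminal repeats. The G elements belong to the Jockey clade of LINEs, which in flies also holds Jockey, Doc, F, BS, X and the telomeric elements. In fly gonads transposons are held down by piRNAs, small RNAs of the Piwi proteins that are cut from long precursor transcripts and recognise complementary transposon transcripts. Small RNAs antisense to an element can pair with its transcript, whereas sense small RNAs derive from the transcript itself or from a precursor read in that direction. In germline cells sense and antisense piRNAs can produce each other by the ping-pong cycle, while the somatic follicle cells of the ovary mainly make piRNAs against gypsy-group elements. The Y chromosome of the fly is rich in repeats and almost entirely heterochromatic.

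The samples were ovaries of X^X control females, of X^X/Yohio and of X^X/Ycongo females, and testes of X^Y control males, of X^Y/Yohio and of X^Y/Ycongo males, named here XX, XXYohio and XXYcongo for ovaries and XY, XYYohio and XYYcongo for testes. Yohio and Ycongo are Y chromosomes of different origin, so that the XXY females carry a Y that control females lack and the XYY males carry a Y more than control males. All flies were 2 days old and were reared at 23 °C on the same medium, and each of the 6 groups had 2 biological replicates. The caret of the labels may stand for joined chromosomes, which they do not state. Whether the strains differ elsewhere in the genome is not given in the sources used here, and an effect of the Y and an effect of the strain cannot be told apart. The columns headed Cs were read as Yohio because the other genotypes of each table are named outright, and every Yohio value rests on this reading.

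Non-spike reads ranged from 897596 to 2663239 per ovary library and from 589490 to 1310076 per testis library. The authors deposited each library's read numbers multiplied by 1 factor per library, so a value of 1 in replicate 1 of XX or XY is 1 read. Read lengths are not in the tables, so piRNAs cannot be separated from other small RNAs or from fragments of transcripts, and values are reads per element and not per length. No miRNA or protein-coding marker is listed, so the tissue labels were checked on gypsy-group elements of the follicle cells. GYPSY_I Minus stood at 578 and 497 in XX and at 26.0 and 34.3 in XY. GTWIN_I Minus was also lower in XY, at 82.0 and 140 against 286 and 266 in XX. IDEFIX_I was less clear, with Minus values of 306 and 278 in XX and 112 and 230 in XY. IDEFIX_I Plus overlapped, with 25.8 in XY replicate 2 against 12.0 and 17.5 in XX. The tables were normalized separately, so this check of the labels is a rough one. The stellate-silencing repeat Suste, which lies on the Y, checked the Y of the XXY females only. Its Minus values in XXYohio (4291 and 5726) and XXYcongo (6842 and 10817) lay above those of XX (440 and 381). Among testes Suste Minus overlapped between XY (43605 and 79771), XYYohio (55125 and 44419) and XYYcongo (48803 and 86915). The added Y of the XYY males is therefore not shown by this marker and rests on the labels. Transposon rows held 25.8% and 22.4% of non-spike values in XX against 22.9% and 29.2% in XXYohio and 45.4% and 42.1% in XXYcongo. The share of rDNA rows went the other way in XXYcongo, at 36.5% and 37.1% against 56.0% and 61.5% in XX. As deposited, the median tested transposon row outside the family was higher in XXYcongo than in XX by 1.14 on the log2(value + 1) scale.

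Levels within the family spanned more than 3 orders of magnitude in ovary. G2 Minus had the highest median over the 6 libraries, 3041, followed by G6 Minus at 2001 and G Minus at 1373. G2 Plus had a median of 885, G Plus of 678 and G6 Plus of 311. G2 (285 to 14815 reads per row and library), G6 and G thus carried most of the reads, and the order of the first 3 depended on genotype, with G6 Minus above G2 Minus in XX. G4 and G5 lay lower, with row medians of 89.4 to 209, and G5A and G3 lower again, at 6.10 to 32.3. G7 was close to the limit of detection, with 0 to 10 reads per row and library. G7 Plus had 0 reads in XXYohio replicate 1, where 3 reads, the limit that a count of 0 allows, would be a value of 1.72. Rows with a mean value of at least 5 over the 6 libraries of a table were tested, which kept 14 of 16 ovary rows (all but those of G7) and 7 of 10 testis rows.

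**Figure D1:**
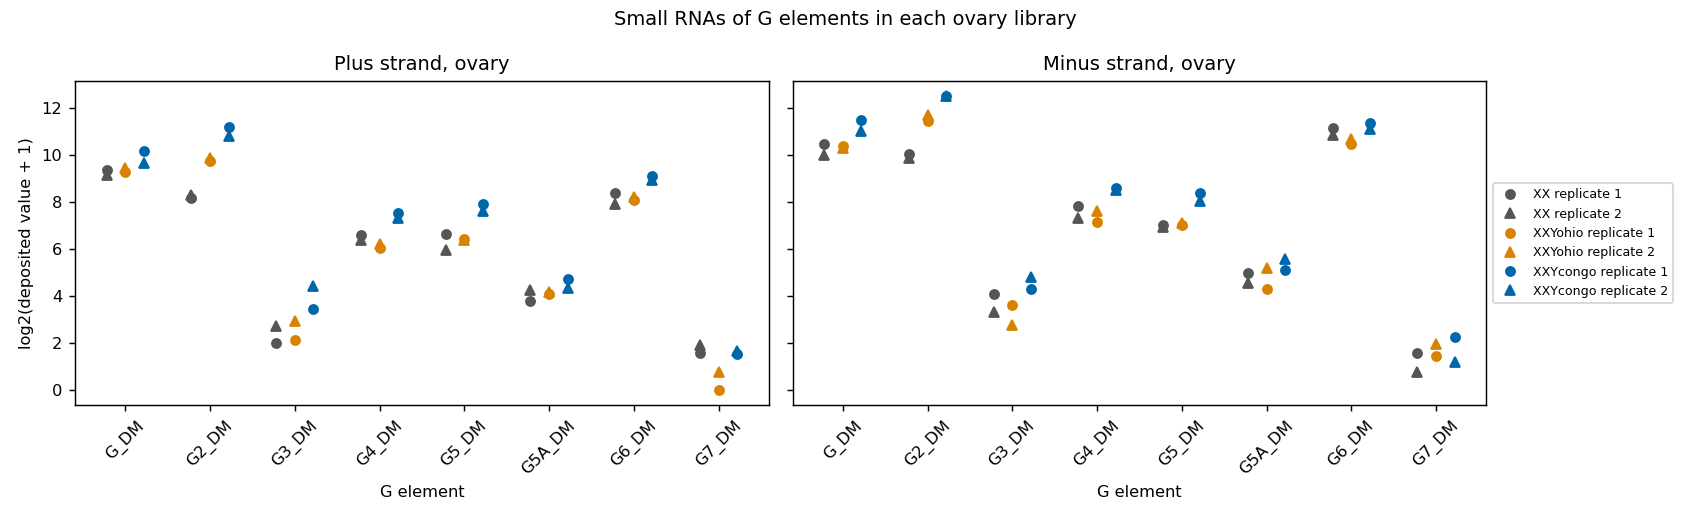
Deposited values of the 8 G elements in the 6 ovary libraries, on a log2(value + 1) axis, Plus rows on the left and Minus rows on the right; each point is 1 library. G2 is the element whose 3 genotypes stand apart on both strands, whereas XX and XXYohio lie side by side for most other elements.

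XXYohio ovaries had about 3 times the G2 small RNAs of XX ovaries on both strands, while no other G element passed the test. G2 Plus stood at 285 and 317 in XX and at 845 and 925 in XXYohio. G2 Minus stood at 1032 and 917 in XX and at 2760 and 3322 in XXYohio. Every XXYohio library lay above every XX library on both strands, and mean values were 2.94 times (Plus) and 3.12 times (Minus) those of XX. Lack of overlap is common with 2 libraries a group, as given with the shares below, so it is a description wherever values are compared. On the log2(value + 1) scale G2 Plus rose by 1.55 ± 0.23 (SE) with an adjusted p of 0.00139 in limma. G2 Minus rose by 1.64 ± 0.21 with an adjusted p of 0.000367 in limma. Thus 2 of the 14 tested rows rose and 0 fell, beside 2.53% of all 791 tested features called higher (0.759% lower) and 4.92% of the 325 tested transposon rows outside the family called higher. This contrast shares the XX libraries with the one that drew attention to the family. As these are bulk tissues, fewer cells of a type and less RNA per cell cannot be told apart.

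G6 and G, the other abundant elements, did not follow G2. G6 Minus stood at 2222 and 1845 in XX and at 1420 and 1652 in XXYohio. Both XXYohio libraries lay below both XX libraries, yet the difference of -0.40 ± 0.22 did not pass the test, with an adjusted p of 0.374 in limma. G6 Plus stood at 330 and 241 in XX and at 270 and 292 in XXYohio, with XXYohio inside the range of XX. G Plus was 662 and 560 in XX against 608 and 695 in XXYohio. G Minus was 1426 and 1024 in XX against 1320 and 1260 in XXYohio. Groups overlapped on both strands of G. Across the 12 tested rows other than G2 the differences ran from -0.50 to 0.18 with adjusted p of 0.374 to 0.993 in limma, and 0 of them had an unadjusted p under 0.05, beside 13.8% of all features. The median difference was 0.09 over the 14 rows and 0.04 without G2, against -0.03 over the other transposon rows and 0.10 over all features. Scaling to spike-ins moved the median of all features to 1.33 and that of the 14 rows to 1.28, and turned G6 Minus to 0.87.

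The G2 rise in XXYohio did not rest on the deposited scaling or on a single library. With every library scaled to its transposon total outside the G family, G2 Plus was higher by 1.54 and G2 Minus by 1.62, with adjusted p of 0.00507 and 0.000347 in limma. The counts recovered from the table gave 1.48 and 1.57 in edgeR, with adjusted p of 0.0221 and 0.00298, where 1.77% of all features were called higher. Both rows were called in 21 of 22 alternatives. The exception combined the replicate number as a block with scaling to spike-ins, where the differences were 2.83 and 2.91 with an adjusted p of 0.476 for both in limma. Among the 339 tested transposon rows G2 Minus had the 14th highest difference in XXYohio and G2 Plus the 17th.

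In XXYcongo ovaries the values of G2 were the highest of the 3 genotypes. G2 Plus was 2291 and 1773 in XXYcongo, 6.75 times the mean of XX, and G2 Minus was 5726 and 5813, 5.92 times. On the log2(value + 1) scale G2 was higher than in XX by 2.74 ± 0.23 (Plus) and 2.57 ± 0.21 (Minus). The other 12 tested rows were higher by 0.24 to 1.59. G3 Plus, at 3 and 5.59 in XX and 10.1 and 20.7 in XXYcongo, lay farthest from XX among these, at 1.59 ± 0.64, followed by G5 Plus at 1.46 ± 0.30. G6 Minus lay least far from XX, at 0.24 ± 0.22. The median over the 14 rows was 0.96, against 1.14 over the other transposon rows and 0.74 over all features. In this contrast 9 of 14 rows were past the threshold, where 45.5% of all features and 71.7% of the other transposon rows were called higher, and nothing is read from that count. Relative to the transposon total outside the family, G2 remained higher than XX by 1.66 and 1.49, whereas G6 Minus was lower by -0.84.

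**Figure D2:**
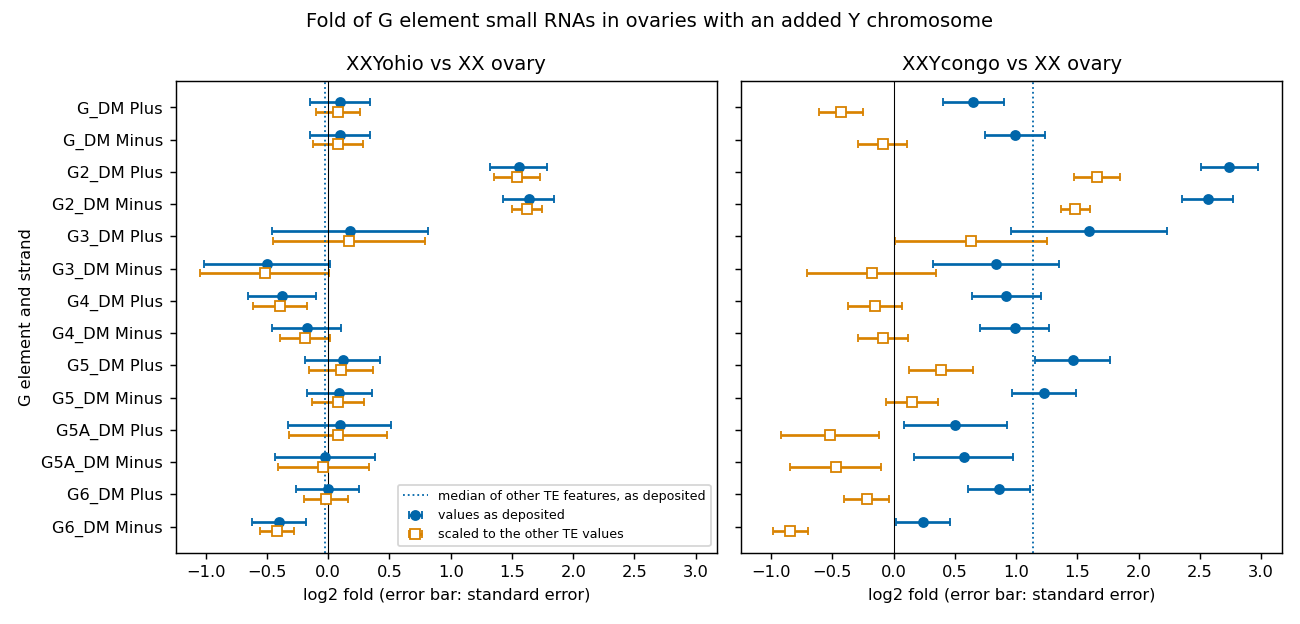
Difference of each tested G row from XX ovary on the log2(value + 1) scale, with its standard error, for XXYohio and XXYcongo (n = 2 libraries per group). In XXYohio the G2 rows, at 1.55 and 1.64, stand apart from the other 12, which lie between -0.50 and 0.18; in XXYcongo the other rows lie between 0.24 and 1.59.

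The added Ycongo went with higher values than the added Yohio across the family, as across transposons in general. G4 Plus was 64.3 and 72.7 in XXYohio and 183 and 157 in XXYcongo, a rise of 1.30 ± 0.28 with an adjusted p of 0.00215 in limma. G5 Plus was 84.9 and 83.7 in XXYohio and 237 and 196 in XXYcongo, a rise of 1.34 ± 0.30 with an adjusted p of 0.00289 in limma. In XX these rows had stood near the XXYohio level, at 97.0 and 81.8 for G4 Plus and at 99.0 and 60.8 for G5 Plus. G2 Plus differed by 1.19 ± 0.23 (adjusted p = 0.00118 in limma) and G2 Minus by 0.93 ± 0.21 (adjusted p = 0.00269 in limma). In all 10 of 14 rows rose and 0 fell, beside 44.9% of all features called higher, 4.17% lower, and 72.9% of the other transposon rows called higher, and the median of the 14 rows was 1.03 against 1.10 over the other transposon rows. This contrast shares the XXYcongo libraries with the one that drew attention to the family, and 0 of the 14 rows were called under TMM, median-of-ratios, transposon-total or spike-in scaling, in edgeR or in DESeq2. In the same order these settings called 18.0%, 17.2%, 8.98%, 6.83%, 18.8% and 19.6% of all features higher. Relative to the transposon total, G2 differed between the added Y chromosomes by 0.12 (Plus) and -0.14 (Minus).

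Shares of the transposon values do not depend on the scaling of a library and give the family's place within the class TE, other repeats of that class included. G2 held 0.570% and 0.613% of transposon values in XX against 1.78% and 1.78% in XXYohio and 1.71% and 1.68% in XXYcongo. G2 was thus at 3.01 times its XX share in XXYohio and at 2.87 times in XXYcongo, with no overlap with XX, which ranked it 4th and 7th of the 182 elements ordered by this ratio. Both XXYcongo libraries lay a little below both XXYohio libraries, as did 26.9% of elements. G6 moved the other way, with 1.10% and 1.04% in XX against 0.835% and 0.813% in XXYohio and 0.682% and 0.585% in XXYcongo. Its 3 genotypes did not overlap, with ratios to XX of 0.770 and 0.592 that ranked it 149th and 170th of 182. The share of G overlapped between XX and each XXY genotype. Not overlapping is common with 2 libraries a group: 28.6% of elements were higher and 34.1% lower in XXYohio than in XX without overlap, and 42.9% and 31.9% in XXYcongo.

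**Figure D3:**
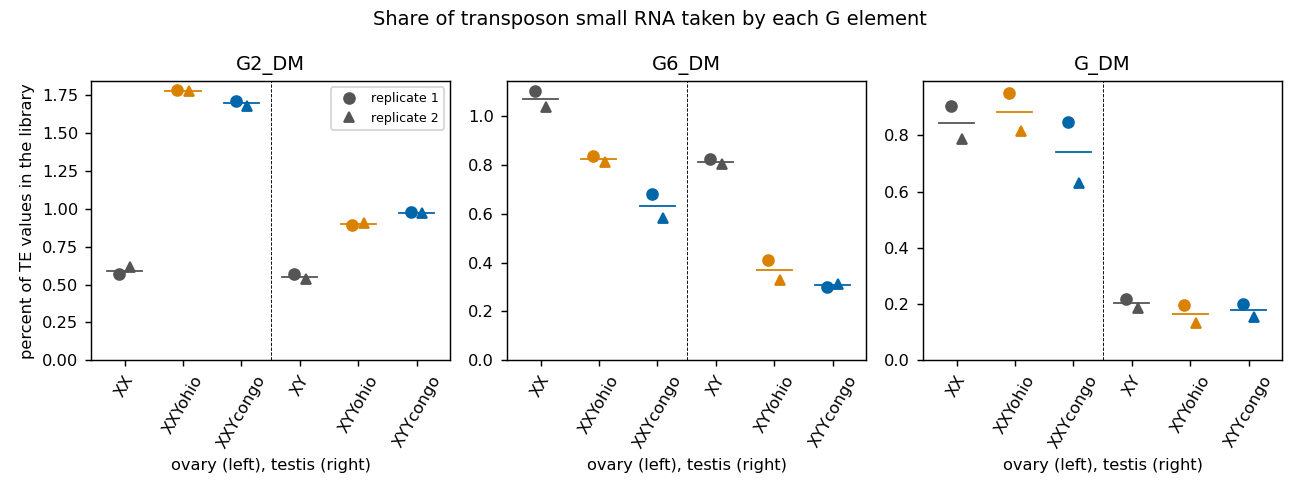
Share of all transposon values held by G2, G6 and G in each library, as a percentage. Against the control of the same tissue, G2 is higher and G6 lower in every library with an added Y; G overlaps between the groups.

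The family as a whole held 2.76% ± 0.119 (SD, n = 2) of transposon values in XX, 3.72% ± 0.117 in XXYohio and 3.32% ± 0.262 in XXYcongo. Its make-up changed more than its sum. G2 supplied 21.5% ± 2.04 of G values in XX, 47.8% ± 1.39 in XXYohio and 51.2% ± 3.30 in XXYcongo. G6 supplied 38.8% ± 0.0609, 22.2% ± 0.276 and 19.0% ± 0.582 in the same order. The leading element of the family was therefore G6 in XX ovaries and G2 in both XXY ovaries.

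In testes, whose libraries are independent of the ovary contrasts, no G row passed the test, although G2 and G6 leaned in opposite directions. G2 Plus stood at 179 and 312 in XY against 432 and 300 in XYYohio and 413 and 550 in XYYcongo. G2 Minus stood at 246 and 381 in XY against 590 and 356 in XYYohio and 528 and 758 in XYYcongo. XYYohio overlapped with XY on both strands, whereas both XYYcongo libraries lay above both XY libraries. G6 Minus stood at 540 and 926 in XY against 385 and 199 in XYYohio and 238 and 319 in XYYcongo. All 4 XYY libraries lay below both XY libraries. Such separation is common with 2 libraries a group, and nothing is read from it for these values.

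Against XY, G2 differed in XYYohio by 0.60 ± 0.68 (Plus) and 0.58 ± 0.68 (Minus), each with an adjusted p of 0.998 in limma. In XYYcongo it differed by 1.01 ± 0.68 (Plus, adjusted p = 0.807 in limma) and 1.04 ± 0.68 (Minus, adjusted p = 0.759 in limma). G6 Minus differed by -1.35 ± 0.68 in XYYohio (adjusted p = 0.772 in limma) and by -1.36 ± 0.68 in XYYcongo (adjusted p = 0.479 in limma). In limma 0 of 7 rows were called in either contrast, beside 0.647% of 618 features higher and 0.0% lower in XYYohio, and 1.13% higher and 0.485% lower in XYYcongo. At an unadjusted p under 0.05 there was 1 row in each, G6 Minus, beside 4.85% and 9.71% of all features. In edgeR 0 of 7 rows and 0.0% of features were called. DESeq2 called G6 Minus lower in both, by -1.41 (adjusted p = 0.00297) and -1.65 (adjusted p = 0.000141), beside 2.27% and 0.485% of features called lower. Between XYYcongo and XYYohio 0 of 7 rows were called in limma, edgeR or DESeq2 and 0 had an unadjusted p under 0.05, beside 0.0% of features called and 1.29% at the unadjusted p.

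**Figure D4:**
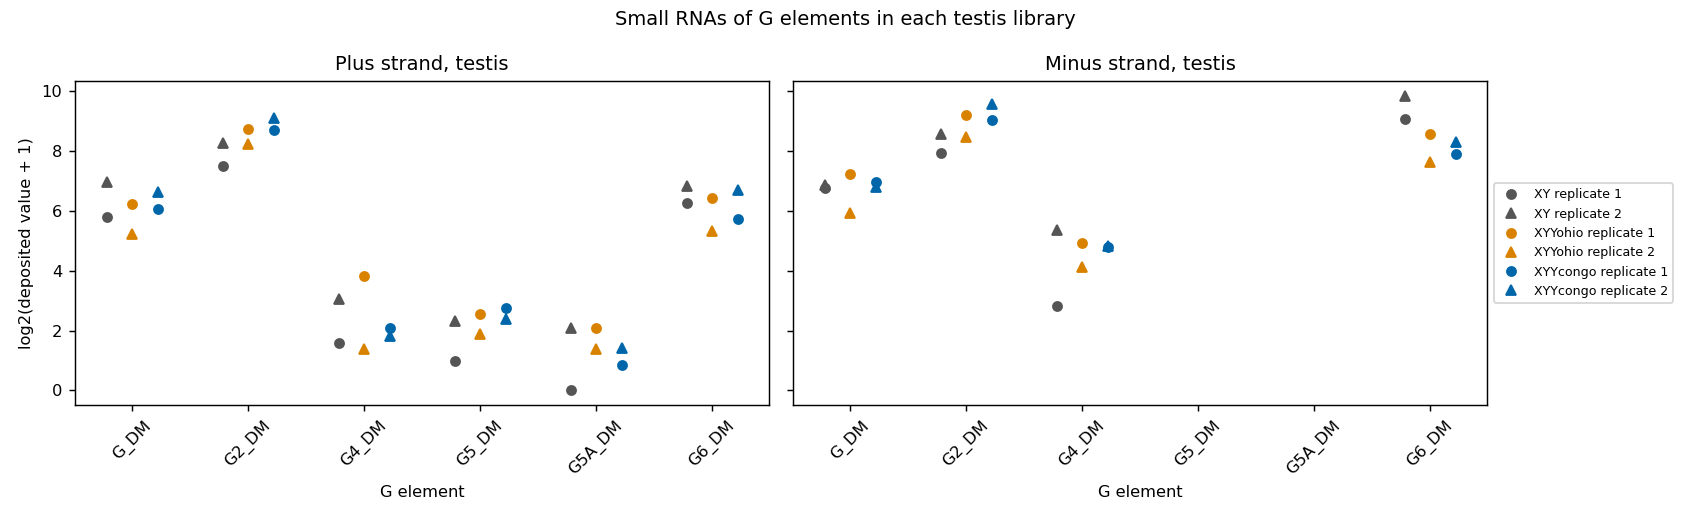
Deposited values of the 6 G elements listed in the testis table, on a log2(value + 1) axis, Plus rows on the left and Minus rows on the right; each point is 1 library. Replicates of a genotype lie far apart for most elements, and G6 Minus is lower in all 4 XYY libraries (199 to 385) than in both XY libraries (540 and 926). Such separation is common with 2 libraries a group.

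The labels state no pairing of libraries. In testis the replicate differences correlated between genotypes, as given with the processing, so differences were also taken within a replicate number, as a description. Within replicate 1 G2 Plus was higher than XY by 1.26 in XYYohio and 1.20 in XYYcongo. Within replicate 2 it differed by -0.06 and 0.81. G2 Minus differed by 1.26 and 1.10 within replicate 1 and by -0.10 and 0.99 within replicate 2. The G2 difference of XYYohio from XY was thus present within replicate 1 and not within replicate 2. G6 Minus was lower than XY within each number, by -0.49 and -2.21 in XYYohio and by -1.18 and -1.53 in XYYcongo.

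Shares of transposon values were tighter between testis replicates than the values themselves. G2 held 0.567% and 0.536% in XY against 0.891% and 0.907% in XYYohio and 0.979% and 0.971% in XYYcongo. These are 1.63 and 1.77 times the XY share, ranking 28th and 20th of 139 elements. G6 held 0.823% and 0.804% in XY against 0.409% and 0.330% in XYYohio and 0.302% and 0.313% in XYYcongo. At 0.454 and 0.377 times the XY share, G6 ranked 134th and 136th of 139. Every XYY library lay above XY for G2 and below XY for G6, where 38.1% of elements were higher and 16.5% lower without overlap in XYYohio, and 36.0% and 25.9% in XYYcongo. The whole family held 1.60% ± 0.0360 (SD, n = 2) in XY, 1.47% ± 0.0978 in XYYohio and 1.49% ± 0.0387 in XYYcongo. Within it G2 supplied 34.6% ± 0.588, 61.3% ± 4.85 and 65.4% ± 1.28 of G values, and G6 supplied 51.0% ± 0.310, 25.1% ± 2.14 and 20.6% ± 1.05. As in ovary, the leading element was G6 in the control and G2 in both genotypes with the added Y.

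The remaining testis rows were low. G Plus ranged from 36.3 to 125 with a median of 70.5, and G Minus from 60.2 to 149 with a median of 114, each with overlapping genotypes. G4 Minus ranged from 6 to 39.9. G4 Plus, G5 Plus and G5A Plus had 0 to 18 reads per library and were not tested. G5A Plus had 0 reads in XY replicate 1, where the limit that a count of 0 allows is a value of 3.00.

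The balance of the strands differed among G elements, and for G2 it also differed between the tissues. Plus and Minus are the strands of the listed element entry, and which of them is sense is not stated in the table. Plus reads made up 21.6% to 28.6% of G2 reads in the ovary libraries (median 23.4%) and 42.0% to 45.7% in the testis libraries (median 43.1%), with no overlap between tissues. The tables were normalized separately, which does not touch a share within a library, and the difference between tissues was not tested. Among the 99 elements compared in this way, lack of overlap was common: 25.3% had a higher Plus share in every testis library than in every ovary library and 22.2% the reverse. For G the Plus share was 28.4% to 35.5% in ovary and 33.5% to 51.7% in testis, which overlap, and G6 and G4 overlapped too.

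G6 was the G element with the most one-sided reads in both controls, and its Plus share was higher with an added Y. Plus reads made up 12.9% of G6 reads in XX replicate 1 (95% Wilson interval 11.7% to 14.3%) and 11.5% in replicate 2 (10.4% to 12.7%). The share was 16.0% and 15.0% in XXYohio and 17.0% and 18.3% in XXYcongo, so that no XXY library overlapped with XX. In testis it was 12.5% and 11.0% in XY against 18.0% and 16.5% in XYYohio and 18.0% and 24.2% in XYYcongo, again with no overlap. Elements with a Plus share above the control without overlap were 27.2% of 158 in XXYohio, 21.5% in XXYcongo, 24.2% of 99 in XYYohio and 16.2% in XYYcongo. Those below it without overlap were 26.6%, 34.2%, 30.3% and 31.3%. The intervals cover counting error only. In limma on log2((Plus + 1)/(Minus + 1)), G6 shifted towards Plus by 1.00 ± 0.30 in XYYcongo (adjusted p = 0.00943). The shifts of 0.66 ± 0.30 in XYYohio (adjusted p = 0.135 in limma) and 0.40 ± 0.15 in XXYohio (adjusted p = 0.163 in limma) did not pass. In XXYcongo against XX, given as a description, the G6 balance differed by 0.62 ± 0.15.

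In XYYcongo 1 of the 3 G elements tested for strand balance was called, G6, beside 13.1% of 99 elements called either way and 8.08% shifted towards Plus. In XXYcongo against XX 1 of 7, again G6, was past the threshold, where 12.0% of 158 elements were called either way and 4.43% shifted towards Plus, and nothing is read from that count. The strand balance of G2 differed by 0.18 ± 0.18 in XXYcongo and by -0.03 ± 0.25 in XYYcongo (adjusted p = 0.926 in limma for the latter). The G6 call in XYYcongo depended on the error estimate: the adjusted p was 0.125 without the trend in limma and 0.0559 with only the groups compared. It was lost without XY replicate 1 (adjusted p = 0.0807 in limma), XY replicate 2 (0.112), either XYYohio library (0.0559 each) or XYYcongo replicate 2 (0.213).

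**Figure D5:**
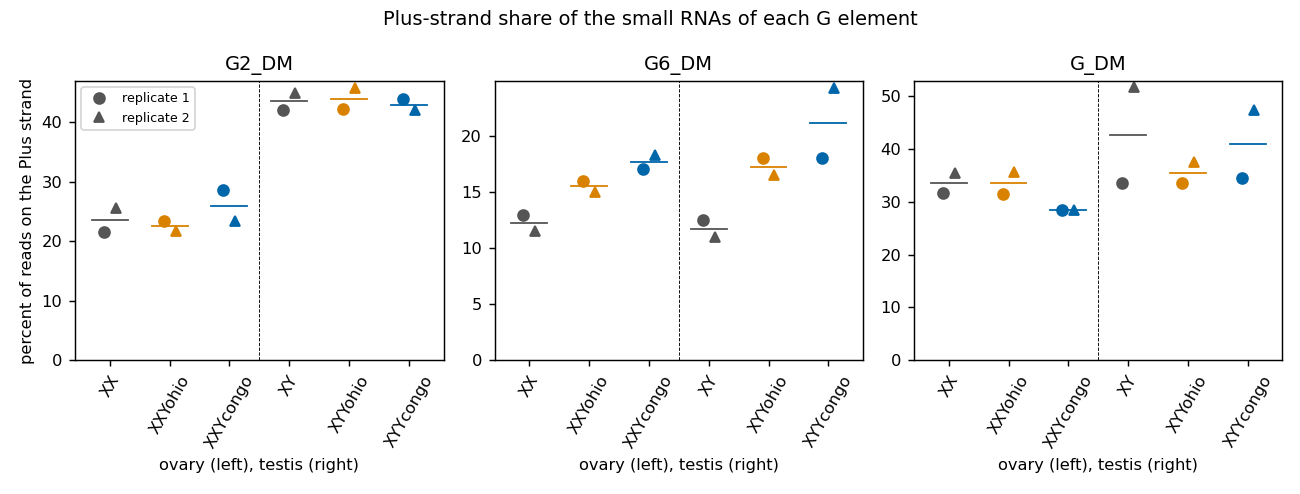
Plus reads as a percentage of the Plus and Minus reads of G2, G6 and G, with a point per library and a line at each group mean. G2 sits between 21.6% and 28.6% in ovary and between 42.0% and 45.7% in testis, and G6 is higher in every library with an added Y than in the controls of its tissue.

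Other LINEs of the Jockey clade, listed by name and outside the G family, gave the nearest comparison. The telomeric elements of the clade were not in this list. In XXYohio 1 of 30 tested rows rose and 0 fell: HELENA_RT Plus, by 1.53 with an adjusted p of 0.0342 in limma. This is beside 2.53% of all features and 4.92% of transposon rows outside the G family called higher. DOC5_DM Plus differed by -1.45 (adjusted p = 0.0707 in limma) and HELENA_RT Minus by 1.36 (adjusted p = 0.106 in limma). In XXYcongo 24 of 30 were past the threshold against XX, with a median of 1.10. There 45.5% of all features and 71.7% of transposon rows outside the G family were called higher, and nothing is read from that count. Those with the lowest p were DOC6_DM Minus and Plus, higher by 2.20 and 2.00, and HELENA_RT Plus, higher by 2.51. From XXYohio to XXYcongo 24 of 30 rose, led by Jockey Plus (1.68, adjusted p = 0.000181 in limma), DOC Minus (1.36, 0.000272) and DOC3_DM Minus (1.32, 0.000498). This count stands beside the 44.9% of all features and 72.9% of transposon rows outside the G family called higher in this contrast, shares that fall under other scalings as given above. In testis 1 of 19 rows rose in each XYY genotype, HELENA_RT Minus, by 2.99 in XYYohio (adjusted p = 0.00236 in limma) and 2.96 in XYYcongo (adjusted p = 0.00226 in limma). Of all features 0.647% and 1.13% were called higher in these contrasts. HELENA_RT Minus was close to the limit of detection in XY, at 1.00 and 4.03. HELENA_RT is a Jockey-clade element whose fly copies are mostly defective.

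The rows whose ovary profile was closest to that of G2 were not rows of G elements. Closeness was taken as the root mean square difference of log2(value + 1) profiles, each centred on its mean over the 6 ovary libraries, among 325 tested transposon rows outside the family. For G2 Plus the closest were GTWIN_I Plus (0.156), Chimpo_I Minus (0.208) and IDEFIX_I Plus (0.222), where the median row was at 0.807. For G2 Minus they were NTS_DM Minus (0.149), GTWIN_I Plus (0.177) and Chimpo_I Minus (0.183), where the median was 0.787. GTWIN_I and IDEFIX_I are gypsy-group LTR retrotransposons known for expression in ovarian follicle cells, and NTS_DM is the spacer between rRNA genes. The other G rows lay at 0.669 to 1.08 from the G2 rows. These profiles include the XXYcongo and XX libraries that drew attention to the family, so the likeness is a description without a test.

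GTWIN_I and IDEFIX_I belong to a group of follicle-cell elements whose values were also summed. The summed value of GYPSY_I, ZAM_I, IDEFIX_I and GTWIN_I, 8 rows in all, was 1303 to 1469 in XX, 1517 to 1848 in XXYohio and 3986 to 5030 in XXYcongo. In limma 2 of the 8 rows rose in XXYohio and 0 fell, with a median difference of 0.24. Beside this, 2.53% of all features and 4.92% of transposon rows outside the G family were called higher. The 8 rows include GTWIN_I Plus and IDEFIX_I Plus, picked above for their likeness to G2, so this count is not independent of the G2 profile. From XXYohio to XXYcongo 7 of the 8 rose, beside 44.9% of all features and 72.9% of transposon rows outside the G family. In testis the sum was 234 to 451 in XY, 263 to 443 in XYYohio and 412 to 541 in XYYcongo, with 0 of 5 tested rows called in limma against XY or between the XYY genotypes. The part of cell composition in the G2 values was not tested.

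The reference annotation gives the copies that such small RNAs could come from or pair with. In BDGP6.54, matched by element name, 147 of 5896 annotated transposon insertions belong to the family, and their length sums to 164688 bp. G2 has 21 insertions of 22682 bp in all, with a median of 700 bp and a longest copy of 3102 bp, and 4 of them reach 2000 bp. G6 has 15 insertions of 23461 bp in all, with a median of 1948 bp, and 7 reach 2000 bp. G4 has 31 insertions, G5A 27, G5 25, G 17, G3 7 and G7 4. Thus G6, the leading element of the family in the controls, and G2, the leading element with an added Y, are not the elements with the most annotated copies. Of the G2 insertions 11 are on 2L, 2 on X and 0 on Y, and 7 lie in introns of protein-coding genes. The assembled Y holds 2 of the 147 G insertions, both of G6, and 80 of all 5896. The reference Y is incomplete and is neither Yohio nor Ycongo, so these counts do not give the copies on the added chromosomes.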

How the data were processed

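Small RNA libraries of ovaries and testes, 6 groups of 2, were trimmed and mapped with Trim Galore and Bowtie 1.1.1, per the submitters' processing notes. Not given in the sources used here are the annotation and genome build, how multiply mapping reads were treated and where the scaling came from. Reads shared by related G elements may therefore be split or counted more than once. The authors deposited 1 table per tissue: read counts for replicate 1 of XX and XY, and for the other libraries a normalized signal, which is read numbers times 1 factor per library (100% of values were whole reads within 0.01). The deposited p-value per feature was not used. The members and lists were chosen with earlier results of these data known.

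Within each table, log2(value + 1) was fitted with limma 3.58.1 (eBayes with trend, R 4.3.3), the 3 genotypes in 1 model, for features with a mean of at least 5, spike-ins left out (791 in ovary, 618 in testis). Prior degrees of freedom were 9.59 in ovary and infinite in testis. Two-sided p-values were adjusted over all features of a contrast (Benjamini-Hochberg) and called under 0.05. Strand balance was fitted likewise over elements with both strands at a mean of at least 5 (158 and 99). A permutation of 2 against 2 libraries cannot pass this threshold, so shares have no p. Every G row counts as a named feature; other Jockey-clade LINEs are given by counts, with up to 3 of the lowest adjusted p named, and the 3 transposon rows most like each G2 row. Replicate differences correlated between genotypes in testis (r = 0.414, 0.353 and 0.396 over all features, and 0.292, 0.144 and 0.363 over transposon rows). Testis differences were therefore also taken within a replicate number, though the labels state no pairing. Alternatives were TMM, median-of-ratios, non-spike, snoRNA, spike-in and transposon totals, pseudocounts 0.5 and 5, other filters, limma without trend, a replicate block, only the groups compared, each library left out, and edgeR 4.0.16 and DESeq2 1.42.0 on the recovered counts. The fits were run on simulated data with known changes. These had independent libraries and a fixed dispersion, unlike testis, where replicate differences correlated, so they do not measure error rates in these data.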

Additional observations from a re-analysis of the deposited data

How the results depend on the processing

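The rise of G2 in XXYohio was called in 21 of 22 alternatives on each strand, at 1.48 to 2.91 over both strands and all 22, and the 2 called rows fell to 0 with the replicate block and spike-in scaling. Against XX, a description without a test, 9 rows were past the threshold in XXYcongo, all higher, where 45.5% of all features were called higher. The number was 2 with TMM, edgeR or DESeq2 (22.6%, 22.4% and 23.5% of all features higher) or the block with spike-ins. It was 3 with median-of-ratios or transposon-total scaling, 2 higher and 1 lower in each. Those scalings called 22.9% and 15.8% of all features higher and 19.0% and 26.4% lower. It was 4 with spike-ins (33.4% of all features higher) and 5 with non-spike totals (36.8%). Nothing is read from these counts. The 10 rows that rose between XXYohio and XXYcongo became 6 with non-spike totals and 0 with TMM, median-of-ratios, spike-in or transposon-total scaling, edgeR, DESeq2 or the block with spike-ins. The median of all features in XXYcongo against XX was 0.74 as deposited, 0.01 with TMM, -0.30 with transposon totals and 1.60 with spike-ins. DESeq2 called 1 testis row in each contrast with XY where limma called 0. The 1 strand call of each Ycongo genotype became 0 without the trend and with only the groups compared, and 0 to 1 with a library left out. G6 Minus turned to 0.87 in XXYohio with spike-ins, with or without the block. In XXYcongo against XX it turned to -0.52 (TMM), -0.53 (median-of-ratios), -0.84 (transposon total), -0.51 (edgeR) and -0.51 (DESeq2), and G2 Minus between the XXY genotypes to -0.14 (transposon total). The causes were not tested. As shares of all non-spike values the family held 0.666%, 0.968% and 1.46% in XX, XXYohio and XXYcongo and 0.295%, 0.238% and 0.297% in XY, XYYohio and XYYcongo.

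In ovary the replicate differences correlated at 0.0161, 0.0651 and 0.246, so the replicate numbers were not taken as pairs. The replicate block alone left 2 called G rows in XXYohio and 0 in each testis contrast and changed no strand call. Depth limits the lowest rows, above all G7, with 0 to 10 reads per library, and the untested testis rows, with 0 to 18, and with 2 libraries a group a p over the threshold does not show that levels were alike.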
